A study of Mus musculus with 5 samples.

Results

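The genes described here mark the enteric nervous system, the network of neurons and supporting glia in the gut wall. They are 8 genes listed by symbol: the glial genes S100b, Gfap and Sox10, the receptor gene Ret, the neuronal genes Uchl1, Tubb3 and Snap25, and the neuropeptide gene Vip. Every gene probe whose RefSeq accession belongs to a listed gene was taken, whatever its signal. This gave 9 of 35078 gene probes, covering 7 of the 8 genes among 15597 genes with a named probe; Sox10 had no named probe. Gfap and Snap25 had 2 probes each and the others 1. Total RNA from mouse colon was measured on 5 single-colour oligonucleotide arrays, 2 of villin-TLR4 mice and 3 of wild-type (WT) littermates, all on a C57Bl6 background and 10 weeks old when the experiment began. All mice received the carcinogen azoxymethane (AOM, 7.4 mg/kg, day 0) followed by 2 courses of DSS (dextran sulfate sodium), a polymer toxic to the epithelium of the colon. The first course began on day 7 and lasted 7 days, the second lasted 5 days, and colon away from the tumours was taken on day 56. The villin-TLR4 mice, 1 labelled female and 1 male, had 1.5% DSS, and the WT littermates, all labelled female, had 3% DSS. Genotype and DSS concentration therefore cannot be told apart. The villin promoter directs a transgene to intestinal epithelial cells, not to the neurons and glia of the wall. The labels name the tissue as colon and do not say which layers of the wall were kept.

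Enteric neurons lie in ganglia between and beneath the muscle layers and control motility, secretion and blood flow, while enteric glia surround them and reach up to the mucosa. Both arise from neural crest cells that colonise the gut under the influence of GDNF, which signals through the receptor tyrosine kinase RET and its co-receptors. S100B is a calcium-binding protein of glia, GFAP a glial intermediate filament and SOX10 the transcription factor that maintains neural crest and glial identity. UCHL1 is a ubiquitin hydrolase abundant in neurons, TUBB3 the neuronal beta-tubulin and SNAP25 a membrane-bound partner in the fusion of synaptic vesicles. VIP is a neuropeptide that relaxes smooth muscle and stimulates epithelial secretion. Enteroendocrine cells of the epithelium also use SNAP25 and UCHL1, so these transcripts are not restricted to nerves.

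Promoter sequences were taken from the RefSeq table of build GRCm38.p6, which held 5 of the 8 genes (Uchl1, Tubb3, Vip, S100b and Gfap). The 250 bases before the annotated start are shown for the 3 of them whose probes were found on at least 4 arrays. All 3 lie on the + strand, and capitals mark matches to any of 5 short motifs searched on both strands. The letters TGACG are the core of the cyclic AMP response element and CAGCTG is an E-box. The letters GGGCGG form the GC box, TATAAA is the core of the TATA element, and the letters CCAAT give their own box its name.
Vip, chr10:5638968-5639217: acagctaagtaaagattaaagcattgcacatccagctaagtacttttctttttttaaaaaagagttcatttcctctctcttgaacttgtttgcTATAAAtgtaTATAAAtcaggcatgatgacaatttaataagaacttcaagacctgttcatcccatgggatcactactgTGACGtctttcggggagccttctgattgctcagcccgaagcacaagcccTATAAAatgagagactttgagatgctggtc
Tubb3, chr8:123411303-123411552: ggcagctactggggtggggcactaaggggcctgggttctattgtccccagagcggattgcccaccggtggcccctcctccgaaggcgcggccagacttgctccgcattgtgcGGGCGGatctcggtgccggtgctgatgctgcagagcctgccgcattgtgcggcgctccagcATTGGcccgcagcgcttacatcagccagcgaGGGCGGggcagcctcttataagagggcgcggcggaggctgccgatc
Uchl1, chr5:66675871-66676120: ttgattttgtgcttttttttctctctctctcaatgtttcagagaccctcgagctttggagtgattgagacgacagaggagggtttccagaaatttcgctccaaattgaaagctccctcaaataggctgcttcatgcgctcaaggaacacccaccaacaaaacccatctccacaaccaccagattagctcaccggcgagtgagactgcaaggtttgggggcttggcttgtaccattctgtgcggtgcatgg
The Vip promoter held TGACG at -79 to -75 and TATAAA at -30 to -25, -147 to -142 and -157 to -152, counted from the start. TGACG occurred in 17.8% and TATAAA in 12.4% of the 32851 promoter windows of the same length. The Tubb3 promoter held GGGCGG at -138 to -133 and -46 to -41, and CCAAT on the opposite strand at -77 to -73, motifs present in 32.7% and 33.8% of windows. None of the 5 motifs was in the Uchl1 window, CAGCTG (13% of windows) was in none of the 3, and no matches overlapped. The GC content was 38.4% for Vip, 68% for Tubb3 and 48.8% for Uchl1, with a median of 52.4% over all windows. These matches describe the letters only.

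Levels are given as normalised log2 intensity with SD, and each difference is the villin-TLR4 mean less that of WT littermates, with SE. The scanner software marked each spot as found or not found against its local background. It found 17563 and 16380 gene probes on the villin-TLR4 arrays, against 13352, 19203 and 19509 on those of WT littermate replicates 1, 2 and 3. WT littermate replicate 1 was set apart by its array. The upper quartile of its signal over background was 116 units, against 256 to 481 units on the other 4, and it had 1240 spots marked as bad against at most 4. Neutrophil genes were 2.43 above their mean over the 5 arrays there. The lowest normalised signal among its probes lying more than 2 background SDs over background was 7.78, against 6.75 to 7.17 on the others. Values without that array are given beside many of the results it moved. All 12 epithelial markers on the list were measured in these colon samples. Across all genes, limma called 0 of 15051 (0%) at an adjusted p under 0.05, with a smallest adjusted p of 0.773, and 730 (4.85%) had an unadjusted p under 0.05. In bulk tissue, fewer cells of a type and less RNA per cell cannot be told apart.

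Glial transcripts of the list were at or near the detection limit. The S100b probe was found on none of the 5 arrays. It read 6.53 and 6.20 in villin-TLR4 colon, against 6.22, 6.50 and 6.44 in WT littermate colon, with 5 to 28 intensity units over background where the background SD was 30 to 41. The groups overlapped, and the probe carries no measured level in either. Gfap was found on WT littermate replicates 2 and 3 only. Its brighter probe, mMC012871, read 6.20 and 6.11 in villin-TLR4 colon, against 5.83, 6.86 and 6.87 in WT littermate colon. The intensity over background was 6 and 1 units on the villin-TLR4 arrays, against -6, 57 and 77 units on the WT littermate arrays. The spot on WT littermate replicate 1 had a background SD of 939, so its value there is poorly determined. As read, the log2 difference was -0.36 ± 0.37 (SE; limma adjusted p = 0.87), with a 95% confidence interval from -1.26 to 0.54. Because neither villin-TLR4 array found the probe, only a bound could be set there, and the WT littermate mean did not exceed that bound, so no fold change is given. The other Gfap probe was found on WT littermate replicate 2 alone and gave -0.17. Gfap entered the fit only through its signal in WT littermates, so the sign of its difference is no independent result.

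The wider glial list, with genes of enteric glia and Schwann cells, was better measured than the glial members. Of its 19 genes, 16 had a named probe, 11 were measured and 5 were never found, Foxd3, Fabp7, Sox2 and Kcna1 among them. None of the 11 passed, 7 had differences above 0 and 4 below, and the median was 0.03 beside 0.01 over all 15051 genes or unnamed probes tested. Entpd2, an ectonucleotidase of enteric glia, read 9.40 ± 0.09 in villin-TLR4 colon and 9.16 ± 0.23 in WT littermate colon, a difference of 0.24 ± 0.25. Cryab, a small heat shock protein found in glia and in muscle, read 10.43 and 10.60 in villin-TLR4 colon, against 9.93, 12.13 and 12.27 in WT littermate colon. Both villin-TLR4 values and that of WT littermate replicate 1 were low, with a difference of -0.92 ± 0.71 (adjusted p = 0.87), or -1.68 without WT littermate replicate 1. Mbp, a myelin protein, was found on neither villin-TLR4 array, so no fold is given for it, and Cnp, a myelin-associated phosphodiesterase, gave 0.20 ± 0.26, or 0.33 without WT littermate replicate 1. Without WT littermate replicate 1 the median of the list was -0.21, with 8 of 11 below 0, where 51.9% of all genes were. Mbp passed the filter only through WT littermates, so its part in these counts and medians is no independent result.

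Ret was not measurable. Its probe was found on none of the 5 arrays and read 6.13 and 5.75 in villin-TLR4 colon, against 6.11, 6.31 and 6.20 in WT littermate colon, with -13 to 13 units over background. Of the 16 genes of RET and endothelin signalling and of neural crest regulators, 11 were measured, and Gfra2 and Pspn were among 3 never found. None passed, 7 were above 0 and 4 below, and the median was 0.03, or 0.09 without WT littermate replicate 1. The groups did not overlap for 5 of the 11, beside 24.7% of all genes. Phox2a, a transcription factor of autonomic neurons, read 7.04 and 6.71 in villin-TLR4 colon, against 7.69, 8.68 and 7.40 in WT littermate colon, a difference of -1.05 ± 0.41 (adjusted p = 0.87). Both villin-TLR4 values lay below all 3 WT littermate values, although only 1 villin-TLR4 array and 2 WT littermate arrays found the probe. Gdnf, the ligand of the RET complex, showed 6.56 and 6.34 in villin-TLR4 samples, against 6.59, 7.26 and 7.31 in WT littermates, a difference of -0.60 ± 0.30. Its probe too was found on only 1 villin-TLR4 array and 2 WT littermate arrays. The Gdnf difference was -0.84 without WT littermate replicate 1. Ece1, the protease that activates endothelins, gave 1.54 ± 1.01, with 6.59 on WT littermate replicate 1 and 9.70 to 10.53 elsewhere, and 0.44 without that array. Its 2 found probes differed, with 0.13 for the other. Ednrb, the endothelin receptor of enteric neural crest, gave 0.42 ± 0.37, or 0.62 without WT littermate replicate 1.

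The neuronal genes Uchl1, Snap25 and Tubb3 were found on both villin-TLR4 arrays and no difference between genotypes exceeded the spread of the arrays. Snap25 on WT littermate replicate 1 stood furthest from the other arrays. Uchl1 read 8.23 and 7.95 in villin-TLR4 colon, against 7.35, 8.82 and 8.30 in WT littermate colon, and was found on all 5 arrays. Before normalisation its signal over background was 325 and 146 units in villin-TLR4, against 44, 479 and 390 units in WT littermates. Its highest level was in WT littermate replicate 2 and its lowest in WT littermate replicate 1, and both villin-TLR4 samples lay in between. The means were 8.09 ± 0.20 in villin-TLR4 (SD, n = 2) and 8.16 ± 0.74 in WT littermates (SD, n = 3). Their difference was -0.07 ± 0.44 (SE; limma adjusted p = 0.98), with a 95% interval from -1.14 to 1.00.

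Snap25 varied most. Its probe mMC009864 read 9.36 and 9.24 in villin-TLR4 colon, against 6.76, 9.92 and 9.21 in WT littermate colon. The signal over background was 842 and 467 units in villin-TLR4, against 28, 1096 and 809 units in WT littermates. On 4 arrays the values lay within 0.71 of each other, and the remaining array, WT littermate replicate 1, did not find the probe. Taking the lowest signal well above background on that array as a limit, Snap25 there was at least 3.13-fold lower than the mean of the other 4 arrays. The genotype means were 9.30 ± 0.08 in villin-TLR4 colon and 8.63 ± 1.65 in WT littermate colon. The difference was 0.67 ± 0.87 (limma adjusted p = 0.89), with an interval from -1.44 to 2.78, and it turned to -0.26 without WT littermate replicate 1. The second Snap25 probe, mMR029649, was found on no array and gave no level.

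Tubb3 read 7.23 and 7.42 in villin-TLR4 colon, against 6.93, 7.59 and 7.25 in WT littermate colon. Its signal over background was 108 and 80 units in villin-TLR4, against 32, 153 and 134 units in WT littermates, and it was found on all arrays except WT littermate replicate 1. The groups overlapped, and the difference was 0.06 ± 0.28 (limma adjusted p = 0.97), with an interval from -0.61 to 0.73. Without WT littermate replicate 1 it was -0.10. The value of 7.78 that limits WT littermate replicate 1 is above every Tubb3 value on the other arrays, so a lower Tubb3 level there was not detectable.

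**Figure D1:**
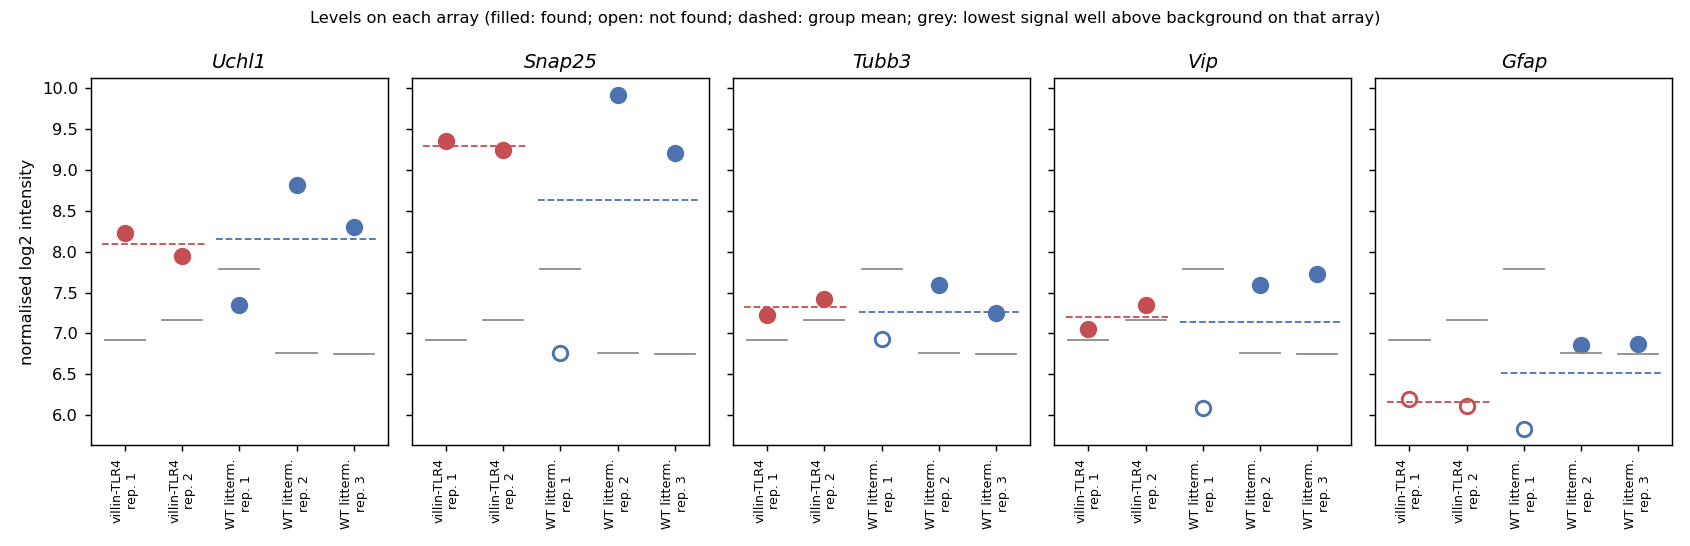
Normalised log2 intensity of Uchl1, Snap25, Tubb3, Vip and Gfap on each array, villin-TLR4 in red and WT littermates in blue, with filled points where the probe was found and open points where it was not; dashed lines are group means and grey bars the lowest signal well above background on that array. WT littermate replicate 1 has the lowest point in each panel, and for Tubb3 and Vip its grey bar at 7.78 lies above every point.

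**Figure D2:**
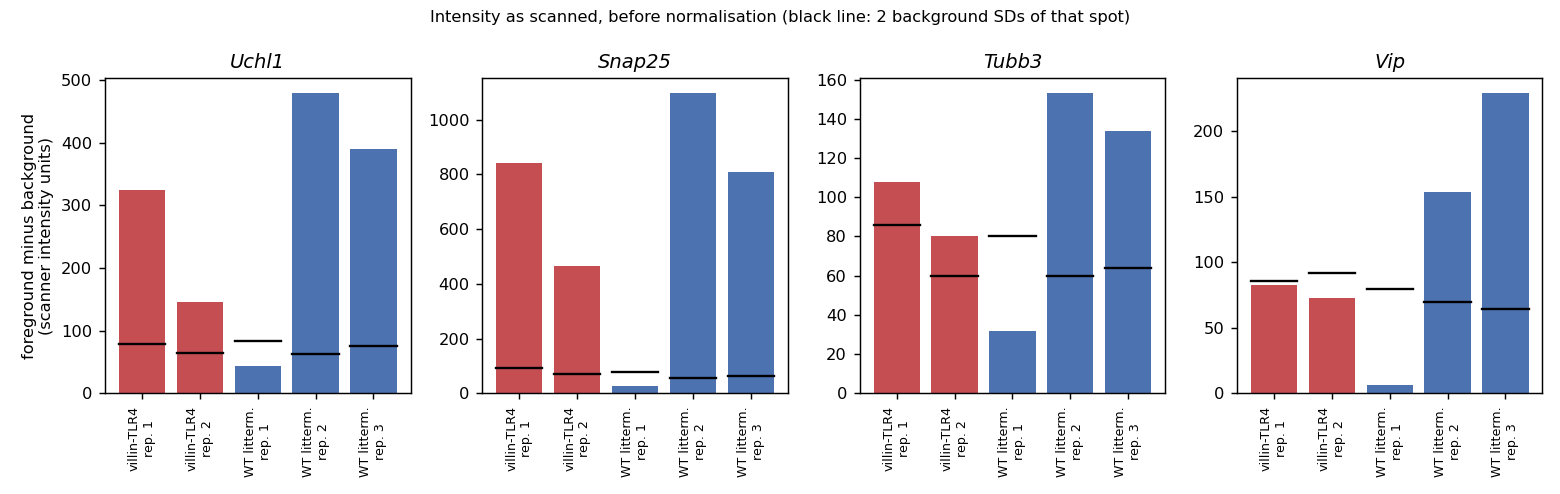
Foreground minus background intensity of Uchl1, Snap25, Tubb3 and Vip in scanner units before normalisation, as bars for each array (villin-TLR4 red, WT littermates blue), with 2 background SDs of the spot as a black line. Only the bars of WT littermate replicate 1 fall below that line in all 4 panels; both villin-TLR4 bars of Vip, 83 and 73 units, lie just under it.

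The related neuronal lists gave no call either. Of 24 pan-neuronal genes, 16 were measured, 5 above 0 and 11 below, with a median of -0.13; the neurofilament genes Nefl and Nefm and the dendritic protein gene Map2 were among 8 never found. The adhesion molecule L1cam read 7.88 and 8.04 in villin-TLR4 colon, against 6.59, 7.39 and 7.68 in WT littermate colon, a difference of 0.74 ± 0.36 (adjusted p = 0.87). Its villin-TLR4 values lay above all 3 WT littermate values, although WT littermate replicate 1 did not find it, and the difference without that array was 0.42. The differences were -0.46 ± 0.29 for the motor protein gene Kif5c and -0.38 ± 0.31 for the RNA-binding protein gene Elavl3. Without that array they were -0.34 for Kif5c and -0.125 for Elavl3. The groups did not overlap for 4 of the 16, where 24.7% of all genes showed no overlap. Thy1 and Ncam1, the 2 with the highest signal, are also expressed outside nerves and gave -0.25 ± 0.35 and 0.18 ± 0.28, or -0.15 and 0.06 without WT littermate replicate 1. Without it the median of the list was -0.26, with 13 of 16 below 0, where 51.9% of all genes were below 0.

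Genes of vesicle release had a median of 0.09 (0.0089 without WT littermate replicate 1) over 16 measured of 23 listed, with 9 above and 7 below 0 and 0 called. Vamp2, the vesicle-side partner of SNAP25, gave 0.63 ± 0.48, or 0.18 without WT littermate replicate 1. The SNAP25 relative Snap47 read 8.35 and 8.49 in villin-TLR4 colon, against 7.90, 7.98 and 7.98 in WT littermate colon, a difference of 0.47 ± 0.22 (adjusted p = 0.87) with no overlap. Syn1, which tethers synaptic vesicles, gave -0.40 ± 0.22, and its other probe 0.05; the 2 Sv2a probes gave 0.37 and -0.03. No overlap was seen for 5 of the 16 genes, beside 24.7% of all genes.

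The relatives of Tubb3, Uchl1 and S100b were measured in the same samples. Of 13 other tubulin chains, 10 were measured and 8 were below 0, with a median of -0.42 and 0 called. Tubb6 read 10.73 and 10.49 in villin-TLR4 colon, against 11.71, 12.32 and 11.63 in WT littermate colon, a difference of -1.28 ± 0.30, and Tuba1c gave -0.84 ± 0.24, both with an adjusted p of 0.87. Both were lower on each villin-TLR4 array than on any WT littermate array, while Tubb3 showed overlap; whether Tubb3 differed from them was not tested. The ubiquitin hydrolases Uchl5 and Bap1 gave -0.19 ± 0.24 and -0.32 ± 0.25, and Uchl3 and Uchl4 were never found. All 10 measured genes on the list of other S100 proteins were below 0, as were 7383 of the 15051 genes or unnamed probes tested. The median of the list was -0.80. S100a8 and S100a9, listed with the neutrophil genes, gave -0.08 and -1.13. The annexin partner S100a10 read 12.29 and 11.78 in villin-TLR4 colon, against 14.32, 13.43 and 12.87 in WT littermate colon. Its difference was -1.51 ± 0.45 (adjusted p = 0.87), or -1.12 without WT littermate replicate 1. The 10 genes of the S100 list stood 1.20 over their mean on WT littermate replicate 1, the highest of the arrays, and their median without that array was -0.31.

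Vip, like Tubb3, was dim. It read 7.05 and 7.34 in villin-TLR4 colon, against 6.09, 7.60 and 7.73 in WT littermate colon, and was found on all arrays except WT littermate replicate 1. The signal over background was 83 and 73 units in villin-TLR4, against 6, 154 and 229 units in WT littermates. Both villin-TLR4 values lay between WT littermate replicate 1 and the other 2 WT littermate arrays. The means were 7.20 ± 0.21 in villin-TLR4 colon and 7.14 ± 0.91 in WT littermate colon, a difference of 0.06 ± 0.52 (limma adjusted p = 0.98) with a 95% interval from -1.19 to 1.31. Without WT littermate replicate 1 the WT littermate mean was 7.66 and the difference -0.47 (adjusted p = 0.47).

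Of the other 22 transmitter and neuropeptide genes, 17 were measured, 6 above 0 and 11 below, with a median of -0.29 and 0 called. The genes for acetylcholine synthesis and vesicular loading, Chat and Slc18a3, and the neuronal nitric oxide synthase Nos1 were never found. Calca, which encodes the sensory neuropeptide CGRP, read 6.15 and 6.50 in villin-TLR4, where it was not found, and 7.23, 7.54 and 6.95 in WT littermates, where 2 of the 3 arrays found it. Calca passed the filter only through WT littermates. As read, the difference was -0.91 ± 0.28 (limma adjusted p = 0.87). WT littermate replicate 3, at 6.95, lay under the lowest signal well above background on villin-TLR4 replicate 2, which was 7.17. No fold is therefore given. Calcb, its close relative, gave -0.63 ± 0.36 and Dbh, which makes noradrenaline, -0.51 ± 0.29, or -0.32 and -0.33 without WT littermate replicate 1. The choline transporter gene Slc5a7 was found on neither villin-TLR4 array and has no fold either. Tac1, the substance P precursor, read 8.95 and 9.13 in villin-TLR4 colon, against 11.13, 9.25 and 8.61 in WT littermate colon. Unlike Vip it was highest on WT littermate replicate 1, and its difference of -0.63 ± 0.70 became 0.10 without that array. Ddc, which completes serotonin and dopamine synthesis and is also an enteroendocrine gene, gave 0.46 ± 0.38, or 0.14 without that array. The groups did not overlap for 5 of the 17, beside 24.7% of all genes. Calca and Slc5a7 are among these 5 and among the 11 below 0. They passed the filter only through WT littermates, so their part in these counts and in the median is no independent result. Without WT littermate replicate 1 the median of the list was -0.32, with 13 of 17 below 0, where 51.9% of all genes were. The VIP receptor gene Vipr1 gave 0.08 ± 0.32 and the PACAP receptor gene Adcyap1r1 0.25 ± 0.51, while Vipr2 was never found. Without WT littermate replicate 1 these turned to -0.10 for Vipr1 and -0.25 for Adcyap1r1.

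The 4 members found on at least 4 arrays read lowest on the same array, WT littermate replicate 1, where 3 of them (Snap25, Tubb3 and Vip) were not found. Averaged over Uchl1, Snap25, Tubb3 and Vip, and taken relative to each gene's mean over the 5 arrays, the profile as read was 0.10 and 0.12 in villin-TLR4 colon, against -1.08, 0.61 and 0.25 in WT littermate colon. The value of -1.08 therefore rests mostly on spots not above background. All 5 members in the fit read lowest on that array, as did 37.7% of all genes tested, but Gfap was not found there either and Uchl1 lay under 2 background SDs, so this is no measured rank. Of 7790 named genes found on every array, the closest to this profile by root mean square difference included Gnl3l, Nxf1, Lrrc66, Penk and Actn4, at 0.03 to 0.08 where the median gene was at 0.63. Penk, the enkephalin precursor, is a transcript of enteric neurons; it read 8.63 and 8.68 in villin-TLR4 colon, against 7.57, 9.13 and 8.71 in WT littermate colon. The others include the nucleolar GTPase Gnl3l and the mRNA export factor Nxf1, which are broadly expressed. The likeness rests on 5 arrays and largely on the unmeasured low readings of WT littermate replicate 1.

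Markers of neighbouring cells were also low on that array. Smooth muscle genes, measured for 14 of 15, averaged 0.51 and 0.05 in villin-TLR4 colon, against -1.15, 0.75 and -0.23 in WT littermate colon, relative to each gene's mean. Their mean log2 level ran from 10.77 to 11.22 in villin-TLR4 samples and from 9.61 to 11.46 in WT littermates, and 13 of 14 had differences above 0, with a median of 0.59. Without WT littermate replicate 1 the median was 0.08, with 9 of 14 above 0, without WT littermate replicate 2 it was 1.07 and without villin-TLR4 replicate 1 it was 0.29. Within the shared scan day 13 of 14 were below 0. The visceral actin Actg2 gave 0.74 ± 0.47, or 0.36 without WT littermate replicate 1. Genes of the interstitial cells of Cajal, the pacemakers of the muscle, stood at 0.33 and 0.28 in villin-TLR4 colon, against -1.34, 0.22 and 0.17 in WT littermate colon, with Kit, which mast cells share, at 1.63 ± 0.82 and Ano1 at -0.21 ± 0.39. Kit was not found on WT littermate replicate 1, and without that array Kit gave 0.78 and Ano1 -0.55. Enteroendocrine genes, 14 of 18 measured, stood at -0.15 and 0.45 in villin-TLR4 colon, against -0.66, 0.12 and 0.24 in WT littermate colon, with a median difference of 0.28, or 0.05 without WT littermate replicate 1. The hormone gene Pyy gave 0.46 ± 0.26 and the granin gene Chga 0.51 ± 0.28, or 0.34 and 0.30 without that array. The other found Chga probe gave 0.05 with all arrays. Epithelial genes stood at 0.04 and 0.06 in villin-TLR4 colon, against -0.42, 0.14 and 0.19 in WT littermate colon, with a median of 0.11, or -0.11 without WT littermate replicate 1. Leukocyte and neutrophil genes ran the other way and were highest on WT littermate replicate 1, at 0.85 and 2.43, with median differences of -0.52 and -0.39. Without that array the leukocyte median was -0.22 and the neutrophil median turned to 1.24, with 8 of 9 genes above 0. Cd177, a neutrophil surface protein that other cells can express, gave 3.15 ± 0.97 (adjusted p = 0.87), or 3.61 without that array. With all arrays, 6 of the 9 neutrophil genes were below 0 and 3 above. Retnlg gave -1.84 ± 1.55 and S100a8 -0.08 ± 1.62, or -0.14 and 1.66 without that array. Whether these shifts or the dim signal of that array have a part in the members' low values there was not tested.

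The other marker lists did not share the members' order of arrays. Exocrine pancreas genes, 11 of 15 measured, were highest on WT littermate replicate 3, at 3.25 over their mean, an array on which the members stood at 0.30, and their median difference was -2.49, or -1.19 without that array. Of 9 pancreatic islet genes, the insulin genes Ins1 and Ins2 were never found, and the 3 measured ones had a median of 0.35. Adipocyte genes, 5 of 8 measured, stood at 1.23 and -0.97 in villin-TLR4 colon, against -0.77, 0.25 and 0.27 in WT littermate colon, with a median of 0.18, or -0.16 without WT littermate replicate 1 and -1.18 without villin-TLR4 replicate 1. Mesothelial and mast cell genes, with 2 and 4 measured, had medians of -0.30 and -0.52 and were highest on WT littermate replicate 1, without which the medians were 0.07 and -0.19. Cela2a of the exocrine pancreas list and Mcpt1 of the mast cell list were found on neither villin-TLR4 array. They passed the filter only through WT littermates, so their part in the medians of those lists is no independent result.

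**Figure D3:**
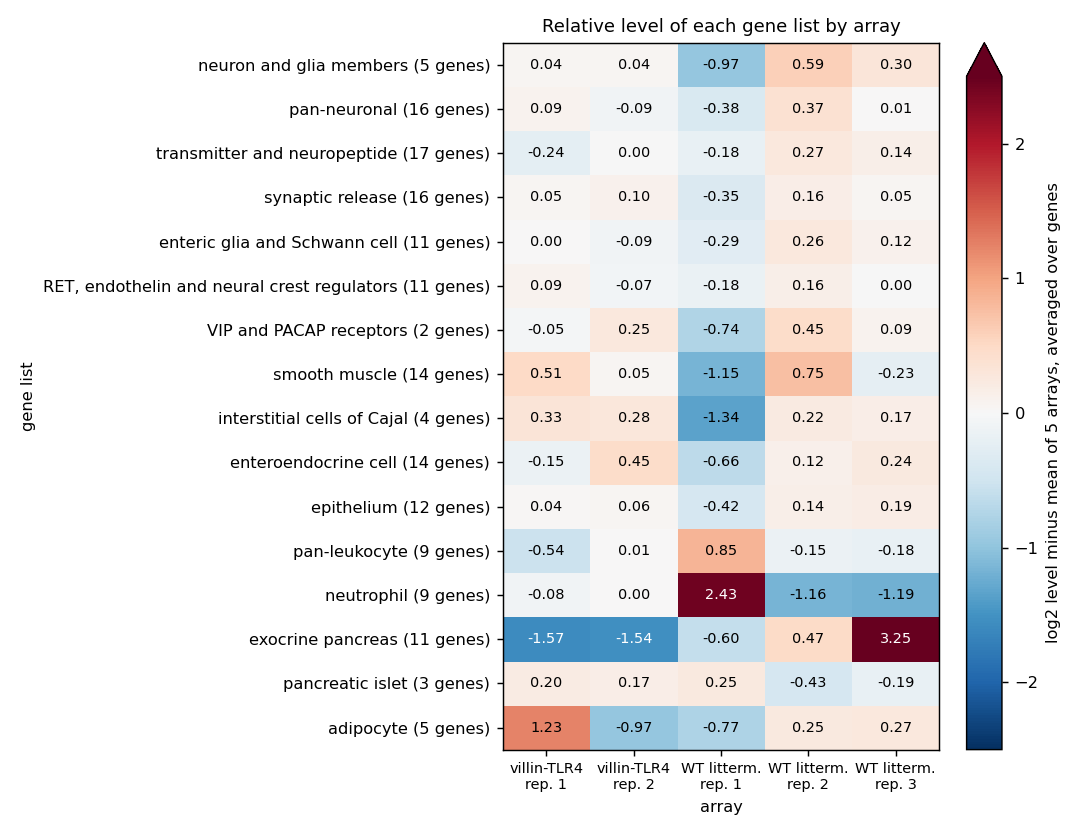
Mean log2 level of each gene list on each array relative to the mean of the 5 arrays, averaged over the measured genes of the list (rows) and shown by array (columns, villin-TLR4 left of WT littermates), with red above and blue below 0. The neuron and glia members, smooth muscle and interstitial cells of Cajal are lowest on WT littermate replicate 1, where neutrophil genes stand at 2.43.

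Of the 5 members in the fit, 0 were called by limma (0% of all genes) and 0 had an unadjusted p under 0.05 (4.85% of all genes). The groups overlapped for all 5, while 24.7% of genes showed no overlap, 12.2% with villin-TLR4 higher and 12.5% with it lower. Their median difference was 0.06, with Gfap as read. Without WT littermate replicate 1 the 5 differences were -0.47 for Uchl1, -0.26 for Snap25, -0.10 for Tubb3, -0.47 for Vip and -0.71 for Gfap. None passed, and the smallest adjusted p was 0.32, for Gfap, whose villin-TLR4 level has only a bound. The 4 members other than Gfap read lowest on the array left out, as did 37.7% of all genes. Dropping that array could therefore only lower the differences of these 4. All 4 were below 0, where 51.9% of genes were, and 2 of the 4 then showed no overlap, where 42.9% of genes did. These were Uchl1 and Vip, with both villin-TLR4 values under both remaining WT littermate values, the direction seen for 22.6% of genes, against 20.3% in the other. The header of each file gives a scan time, and the scans fell on 3 days. Villin-TLR4 replicate 2 and WT littermate replicate 2 shared a day, and within it the differences were -0.87 for Uchl1, -0.68 for Snap25, -0.18 for Tubb3, -0.26 for Vip and -0.74 for Gfap, with 1 array of each genotype. The 4 other than Gfap were below 0, as were 54% of genes. That pair sets a male against a female mouse, so sex and genotype cannot be told apart in it, and WT littermate replicate 2 had the highest value of Uchl1, Snap25 and Tubb3 among all 5 arrays, as it had for 20.7% of genes.

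**Figure D4:**
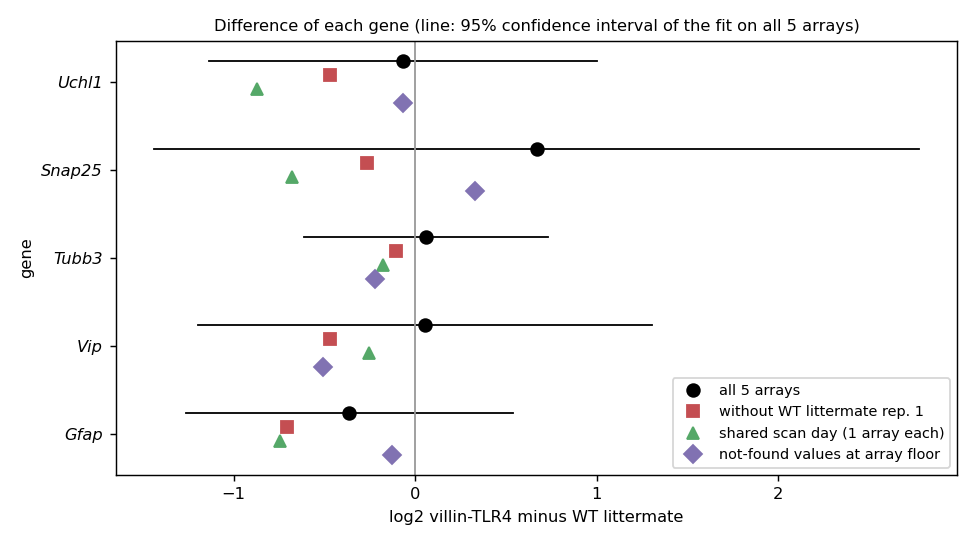
Log2 difference, villin-TLR4 minus WT littermate, for 5 genes from all 5 arrays (black, with the 95% confidence interval as a line), without WT littermate replicate 1 (red squares), within the shared scan day (green triangles) and with values of not-found probes raised to the lowest signal well above background on their array (purple diamonds). The black points run from -0.36 to 0.67 with intervals that span 0, and the red and green points lie below 0 for each gene.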

How the data were processed

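Each deposited file holds 1 array's scanner output: foreground and background intensity at 635 nm for 38880 spots, not normalized, with a flag score per spot (0 found, -50 not found, -75 absent, -100 bad), and per the file headers they were made by GenePix Pro 4.1.1.4 from scans by a GenePix 4000B. A deposited value table holds ratios that follow the background-subtracted intensities scaled per array and divided by a level per probe, which is not stated; the column medians were 0.981, 1.065, 1.176, 0.98 and 0.991, and neither the authors' centring nor the probe level is given in the sources used here, so it served as an alternative.

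The median intensity had its background corrected in limma 3.58.1 (R 4.3.3) by normexp at an offset of 50, bad spots were set to missing, and 35078 gene probes were quantile normalised on the log2 scale. Probes were named by RefSeq accession (23071 probes, GRCm38.p6). A gene was represented by its brightest probe among those found on at least 2 arrays. This left 15051 genes or unnamed probes, tested two-sided with limma's lmFit and eBayes, p-values being adjusted over all of them by Benjamini and Hochberg's method; probes outside that set were fitted among all 35078. The code was tested on simulated data.

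Groups came from the titles. The labels do not say that each sample of a genotype came from its own mouse, apart from the 2 villin-TLR4 samples, which differ in sex, so p-values measure the spread between these samples; the number of arrays limits precision. The members and the 20 related lists were chosen with earlier results of these data known. Other genes were named by rule: up to 4 (pathway lists) or 2 (other cell types) with the smallest p and up to 2 with the highest mean, plus the 6 nearest profiles; genes never found, Chat and Nos1 among them, were named beside these after their values were seen. Some genes that the rule names are not reported here. The alternatives were other background corrections, normalisations, filters, probe summaries and variance models, blocks for replicate number and scan day, sex as a covariate, leaving out each array, the value table and, added after seeing the data, a floor for not-found values.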

Additional observations from a re-analysis of the deposited data

How the results depend on the processing

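No member passed the threshold under any of the 20 alternatives. Gfap, which entered only through its signal in WT littermates, was below 0 in each of the 18 that gave it a value, which says nothing about stability. Uchl1 (15 of 20 below 0), Tubb3 (9 of 19), Snap25 (4 of 19) and Vip (9 of 19) had no settled sign; the cause of the reversals was not tested. Uchl1 turned to 0.0027 with a replicate block and 0.070 with sex as a covariate. Only villin-TLR4 replicate 2 was male, so the sex covariate gave the same differences as leaving that array out. The replicate block gave the same member differences as leaving out WT littermate replicate 3. Scan day as a block rests on the pair of arrays that shared a day. These settings are not separate adjustments, and the counts above include the duplicates. Tubb3 turned to -0.17 with scaling to the 75th percentile, -0.050 with cyclic loess, -0.052 with array weights, -0.034 with sex, -0.18 with scan day as a block, -0.24 in the value table and -0.22 with not-found values at the floor of their array. Vip turned to -0.35, -0.22, -0.40, -0.090, -0.26, -0.88 and -0.51 under the same 7 settings, and Snap25 to -0.066 with array weights, -0.68 with scan day and -0.20 in the value table. Array weights gave WT littermate replicate 1 a weight of 0.174, against 1.33 to 1.82 for the others. The value table held 9000 values for that array, against 14429 to 15027 for the others. Over all probes both settings rest less on that array, so neither is wholly separate from leaving it out. Leaving out each array in turn gave -0.47 to 0.26 for Uchl1, -0.10 to 0.23 for Tubb3, -0.26 to 1.31 for Snap25 and -0.47 to 0.35 for Vip.

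The median of the members was -0.68 with scan day as a block and -0.47 to 0.26 with each array left out. The count of genes called was 20 with the replicate block and 4 with scan day, and 0 in the others. Whether the replicate number pairs the samples could not be settled. Deviations from the group means correlated at -0.15 for number 1 and -0.21 for number 2 across 14605 genes. The deviations of the 2 villin-TLR4 arrays mirror each other, so these correlations are not independent and cannot decide the question. The replicate block, which leaves out WT littermate replicate 3, called no member.

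Among the lists, scan day as a block gave medians of -0.56 for pan-neuronal genes, -0.38 for glia, -0.12 for RET and endothelin genes, -0.47 for ubiquitin hydrolases, -0.67 for smooth muscle, -0.24 for epithelium, 0.24 for leukocytes and -1.16 for adipocytes. Sex as a covariate gave 0.22 for RET and endothelin genes, -0.56 for tubulins and -0.11 for ubiquitin hydrolases. The value table gave 0.29, -0.61 and, for epithelium, -0.29. Transmitter genes stood at -0.54 with 75th-percentile scaling, which put epithelium at -0.25, and at -0.51 over genes found on all 5 arrays. Vesicle release stood at 0.37 with plain subtraction, RET and endothelin genes at -0.26 with the floor and islet genes at -0.0082 without the filter. With each array left out, medians ran from -0.21 to 0.079 for glia, -0.056 to 0.22 for RET and endothelin genes, -0.56 to -0.24 for tubulins, -0.40 to -0.11 for ubiquitin hydrolases, -1.18 to 0.88 for adipocytes, 0.08 to 1.07 for smooth muscle, -1.05 to 1.24 for neutrophils, -0.76 to -0.22 for leukocytes, 0.05 to 0.47 for enteroendocrine genes and -3.40 to -1.19 for exocrine pancreas. Signal over background limits S100b, Ret and the second Snap25 probe on every array. It limits Gfap on every array except WT littermate replicate 3. Gfap had 57 units at a background SD of 31 on WT littermate replicate 2, and 77 units at 38 on WT littermate replicate 3. Uchl1, Tubb3, Vip and the main Snap25 probe are limited on WT littermate replicate 1, and Vip also on both villin-TLR4 arrays.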
